A study of Homo sapiens with 4 samples.

Results

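The SNARE membrane fusion genes are 35 genes that encode the vesicle-borne SNAREs of the VAMP family with YKT6 and SEC22B, the syntaxins, the SNAP proteins, the smaller Golgi and endoplasmic reticulum SNAREs, and NSF and NAPA, which take spent SNARE complexes apart. A gene was included where an array probe carried its symbol, and the probe with the highest mean log2 processed signal over the 4 arrays stood for it. All 35 of the 35 listed genes were found among the 43317 gene names of the array, on 53 probes, with 1 probe for 20 genes and several for 15. All 35 probes were well above background on all 4 arrays, so no member was lost to the filter on dim probes.

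The study measured total RNA of 2 established human cancer cell lines on 1-colour Agilent expression arrays: HCT116, a colorectal cancer line, and A549, a lung cancer line. Cells of each line had received either miR-891b, a microRNA, or NC1, the negative control, both by transfection with the reagent Dharmafect1, so control cells had been transfected as well. Each combination of line and transfection had 1 array, 4 in all, labelled with Cy3 from 100 ng of RNA, and the dose and the time after transfection are not given in the sources used here. The series title concerns PSAT1, an enzyme of serine synthesis, and the release of extracellular vesicles, a process in which SNAREs act.

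A SNARE carries a coiled-coil motif that names its class by the residue at the centre of the bundle. An R-SNARE, usually on the vesicle, zips together with Qa, Qb and Qc motifs on the target membrane, and the assembled bundle pulls the membranes into fusion; SNAP23, SNAP25 and SNAP29 supply the Qb and Qc motifs in one protein. Different sets serve the endoplasmic reticulum, the Golgi, endosomes and lysosomes, and the plasma membrane, where multivesicular bodies and secretory vesicles release their content, and NSF with NAPA spends ATP to separate the used bundle for the next round.

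The transfected microRNA is shown because its seed, bases 2 to 8, is the stretch by which a microRNA commonly pairs with its targets. It lies on the minus strand at chrX:146001100-146001121 of GRCh38.p14, and the 22-base mature sequence is that of RefSeq, with the seed in capitals.
miR-891b: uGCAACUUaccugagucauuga

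The DNA letters complementary to this seed, AAGTTGC, were in 0 of the 53 SNARE probes and in 0.393% of all 58201 gene probes (229 probes). The shorter AGTTGC was in 1 SNARE probe, that of the syntaxin STX11, and in 1.18% of all gene probes. A probe covers 60 bases of a transcript, so these counts describe the probes only, and the rest of each transcript was not used here.

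On the arrays, 44.7% to 50.3% of gene probes were well above background, and none was saturated. Levels below are log2 processed signals relative to the 75th percentile of the same array, so that 0 is the 75th percentile, and a change is miR-891b minus NC1 on that scale. Probes printed at 5 or more spots had a median SD of the log2 difference between the arrays of a line of 0.0615 in HCT116 and 0.0711 in A549, which covers spots but neither cultures nor labelling. PSAT1 had levels of 6.22 and 5.41 on the HCT116 NC1 and miR-891b arrays and of 5.76 and 4.17 on the A549 pair, so its changes were -0.81 and -1.58. Of 7 A549 markers 6 were at least 2-fold higher in A549 with NC1, the exception being SFTA1P (-1.11), and of the HCT116 markers CDX2, EPCAM, CLDN3 and CLDN7 were lower in A549 by at least 2-fold, whereas CDH1 differed by -0.24, ELF3 was higher in A549 by 1.62, LGALS4 was well above background in A549 only, and GPA33 was on no array. The labels' protocols mention fibroblast lines too: of 6 fibroblast markers COL1A2, COL3A1 and DCN were well above background on no array, COL1A1 and PDGFRB on all 4, and the summed linear level of the list was 2.62 and 2.16 in HCT116 (NC1, miR-891b) and 3.90 and 10.4 in A549, where LUM went from 1.03 to 3.17. The part of these markers in the SNARE values was not tested. Areas of stray signal, where 10% or more of the neighbouring spots that are dim elsewhere were above background, held 10.5% of gene spots on the HCT116 miR-891b array and 0.0213% to 2.20% on the others.

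The question for the 35 genes was which of them differed between miR-891b and NC1 cells of the same line. In A549, the miR-891b array was at least 2-fold lower than the NC1 array for VAMP7 and SNAP29 and at least 2-fold higher for STX3, and in HCT116 no member reached 2-fold. VAMP7, an R-SNARE of late endosomes and lysosomes, was the lowest in both lines (-1.51 in A549, -0.65 in HCT116). SNAP23, SNAP25 and SNAP29, the members with a Qb and a Qc motif, were lower in both lines. Each was at least 1.5-fold lower in A549, though none of the 3 under normexp with quantile normalization (-0.21, -0.58 and -0.32). SNAP47, a brighter SNAP protein outside the 35 members, had changes of 0.073 in A549 and -0.014 in HCT116. With 1 array per group no value has an SD over cultures and no p-value is given within a line. Total RNA does not tell less RNA per cell from fewer cells that make it.

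The 2 members at least 2-fold lower in A549 are 5.71% of 35, beside 5.57% of all 21337 genes measured in A549, and the 1 member higher is 2.86%, beside 4.01%. At 1.5-fold, 4 members were lower (VAMP7, SNAP29, SNAP23, SNAP25), beside 15.3% of all genes, and 2 were higher (STX3, STX12), beside 11.1%. Each of these shares of the members is close to or below the share over all genes. The median change of the members in A549 was -0.015, beside -0.059 over all genes, and 19 of 35 were lower, beside 55.6% of all genes.

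In HCT116, 0 of 35 were at least 2-fold lower, beside 0.843% of 19104 genes, and 0 were at least 2-fold higher, beside 1.16%. At 1.5-fold, VAMP7 and SNAP23 were lower (2 of 35, beside 5.65% of all genes) and 0 were higher (beside 3.91%). Changes ran from -0.65 (VAMP7) to 0.51 (VAMP1), with a median of -0.073, beside -0.041 over all genes. As a group, the SNARE genes passed these sizes at shares close to or below those of the array at large.

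**Figure D1:**
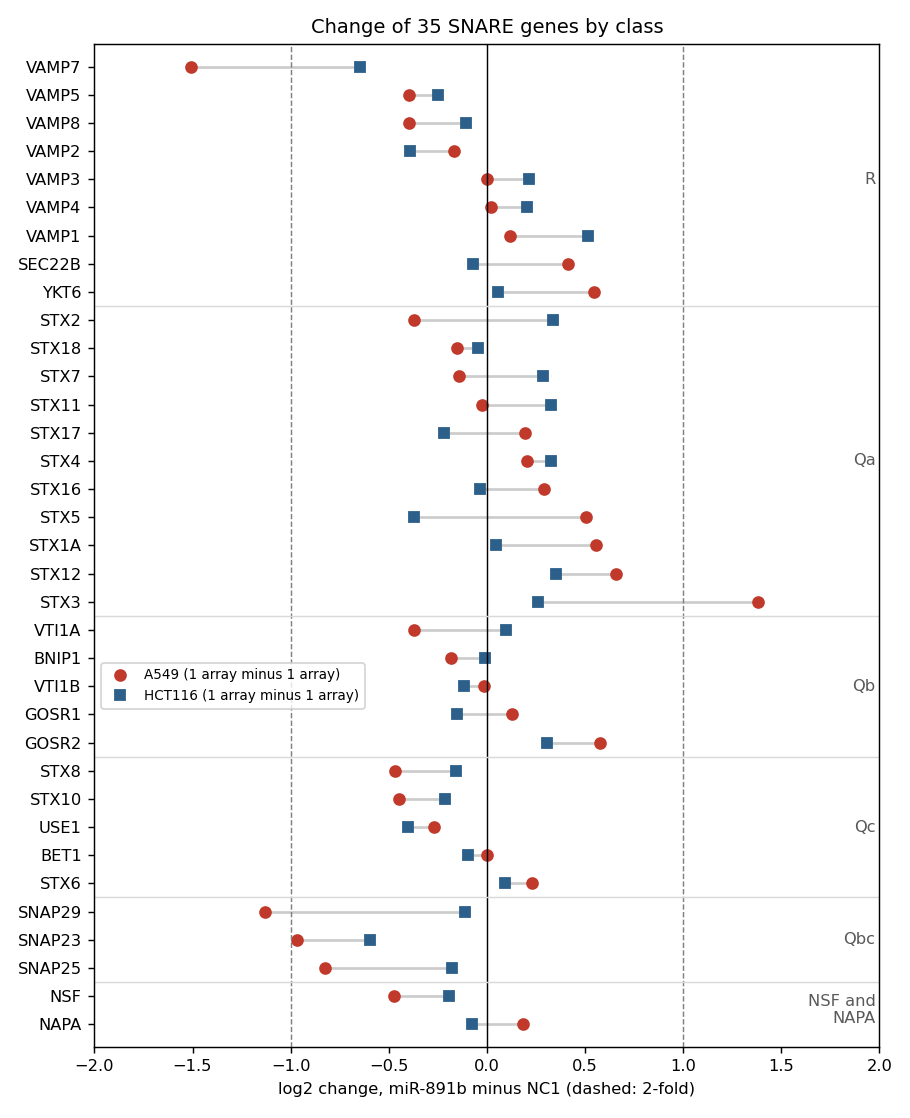
Log2 change (miR-891b minus NC1, horizontal axis) of each of the 35 SNARE genes, grouped by class, with 1 circle for A549 and 1 square for HCT116, each the difference between 1 array and 1 array; dashed lines mark 2-fold. Only VAMP7, SNAP29 and STX3 lie past a dashed line, all in A549 (-1.51, -1.13 and 1.38). All 3 Qbc-SNAREs among the members lie left of 0 in both lines.

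Among the R-SNAREs, VAMP7 was measured by 1 probe at chrX:155172553-155172612 (hg19, plus strand). VAMP7 joins lysosomes and late endosomes to the plasma membrane and to autophagosomes. Its levels were 3.18 with NC1 and 2.53 with miR-891b in HCT116, and 3.22 with NC1 and 1.72 with miR-891b in A549. Both NC1 arrays were nearly level and both miR-891b arrays were below them, A549 further than HCT116. The processed signals were 497 and 330 in HCT116 and 698 and 244 in A549. After scaling to the 75th percentile, which holds for every fold given here, VAMP7 was 1.57-fold and 2.84-fold lower. Across the alternative settings the A549 change ran from -1.51 to -1.26 and the HCT116 change from -0.65 to -0.52.

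The other R-SNAREs lay between -0.40 and 0.55 in A549. VAMP8, an R-SNARE of endosomes and of regulated secretion, had levels of 6.23 and 6.13 in HCT116 and of 4.89 and 4.49 in A549, changes of -0.11 and -0.39, and both HCT116 arrays were above both A549 arrays. VAMP5, first described in muscle, had changes of -0.25 in HCT116 and -0.40 in A549, and its probe starts 9921 bases from that of VAMP8 on chromosome 2 (hg19). The VAMP5 signals were dim, 12.0 to 18.2, and with normexp background correction its changes were -0.083 in HCT116 and -0.072 in A549. VAMP1, a neuronal vesicle SNARE, had the highest HCT116 change: its levels were -2.20 and -1.69 there (0.51) and -2.51 and -2.39 in A549 (0.12), all from processed signals of 11.9 to 17.7. With normexp background correction the HCT116 change of VAMP1 was 0.11.

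VAMP2 and VAMP3 are the R-SNAREs of synaptic and of recycling vesicles. VAMP2 had a change of -0.39 in HCT116 and -0.17 in A549 on its brightest probe, which lay in a stray area of the HCT116 miR-891b array, and VAMP3 had 0.21 and -0.0018. VAMP4, of the trans-Golgi network, had 0.20 and 0.018 on its brightest probe. Its other probes had 0.35 and 0.87 in HCT116 and 0.20 and 0.27 in A549. The probe with 0.87, past 1.5-fold, lay in a stray area of the HCT116 miR-891b array (24.3% of nearby dim spots). The remaining R-SNAREs act between the endoplasmic reticulum and the Golgi: YKT6, which is held on membranes by lipid, had levels of 4.12 and 4.18 in HCT116 and 3.48 and 4.02 in A549 (0.06 and 0.55), and SEC22B had changes of -0.073 and 0.41. The brightest SEC22B probe lay in a stray area of the HCT116 NC1 array (17.9% of nearby dim spots). The second SEC22B probe had 0.064 in HCT116 and 0.071 in A549. Of the 9 R-SNAREs 5 were lower in each line, beside 55.6% of all genes in A549 and 55.5% in HCT116. The median of the 9 in A549 was -0.0018, and 0.0083 without VAMP7.

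The promoters of 4 members are shown for the letters upstream of the genes: VAMP7, SNAP29 and STX3, past 2-fold in A549, and SNAP23, at least 1.5-fold lower in both lines. The 250 bases before the annotated start are from RefSeq, GRCh38.p14, all on the plus strand, at chrX:155881095-155881344 for VAMP7, chr15:42495384-42495633 for SNAP23, chr22:20858757-20859006 for SNAP29 and chr11:59755126-59755375 for STX3. Capitals mark matches to 3 motifs searched on both strands. The CCAAT box was searched as CCAAT and, on the opposite strand, as the letters ATTGG. The E-box that lysosomal gene regulators of the TFE family are known to bind was searched as CACGTG, which reads the same on both strands. The TATA box was searched as TATAAA, with the other strand read as TTTATA. None of the marked matches overlaps another.
VAMP7: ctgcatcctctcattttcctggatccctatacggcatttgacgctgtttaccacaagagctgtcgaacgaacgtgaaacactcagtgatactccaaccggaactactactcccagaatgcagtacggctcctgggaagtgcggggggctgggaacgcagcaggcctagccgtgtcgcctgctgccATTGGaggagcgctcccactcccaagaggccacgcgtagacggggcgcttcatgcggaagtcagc
SNAP23: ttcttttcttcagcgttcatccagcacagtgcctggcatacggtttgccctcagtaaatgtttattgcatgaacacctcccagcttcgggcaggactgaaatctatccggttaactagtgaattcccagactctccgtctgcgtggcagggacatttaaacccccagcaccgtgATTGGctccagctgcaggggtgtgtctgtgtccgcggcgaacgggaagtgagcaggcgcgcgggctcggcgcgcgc
SNAP29: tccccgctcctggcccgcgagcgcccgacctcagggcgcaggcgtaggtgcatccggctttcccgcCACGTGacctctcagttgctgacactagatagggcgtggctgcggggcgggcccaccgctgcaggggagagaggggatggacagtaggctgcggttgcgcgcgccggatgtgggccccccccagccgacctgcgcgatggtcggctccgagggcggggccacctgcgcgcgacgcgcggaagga
STX3: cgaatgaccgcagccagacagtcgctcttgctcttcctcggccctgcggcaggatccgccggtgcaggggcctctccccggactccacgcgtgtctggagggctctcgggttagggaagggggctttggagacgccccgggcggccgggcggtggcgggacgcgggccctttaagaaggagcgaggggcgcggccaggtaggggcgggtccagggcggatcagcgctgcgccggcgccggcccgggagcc

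The CCAAT box on the reverse strand begins 65 bases before the start in VAMP7 and 76 bases before it in SNAP23. SNAP29 holds CACGTG 184 bases before its start, and the STX3 window holds none of the 3 motifs. Promoters of 32 of the 35 members were matched, all but SNAP25, USE1 and STX17. CCAAT was in 11 of 32 (34.4%, beside 33.0% of all 27195 promoters), CACGTG in 6 of 32 (18.8%, beside 6.50%; BNIP1, GOSR2, NAPA, SNAP29, STX2 and STX6) and TATAAA in 0 of 32 (beside 11.1%). The 6 members with CACGTG had A549 changes of both signs, from -1.13 (SNAP29) to 0.58 (GOSR2). The median GC content was 65% over the members and 58% over all promoters. These are matches of letters and show no binding.

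The Qa-SNAREs are the syntaxins of the target membrane. In A549 7 of 11 were higher, with a median of 0.20, and in HCT116 7 of 11 were higher, with a median of 0.26. Over all genes 9472 of 21337 were higher in A549 and 8509 of 19104 in HCT116. STX3, a syntaxin of the apical plasma membrane and of secretory granules, had levels of 0.72 with NC1 and 0.98 with miR-891b in HCT116, and -0.18 and 1.20 in A549 (probe at chr11:59569425-59569484, hg19, plus strand). The processed signal was 66.1 with NC1 and 171 with miR-891b in A549, and 90.4 and 113 in HCT116. After scaling, STX3 was 2.60-fold higher in A549 and 1.20-fold higher in HCT116. With NC1 the level was lower in A549 than in HCT116, and with miR-891b it was higher. Under normexp with quantile normalization the A549 change was 0.90, below 2-fold.

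STX12, also called syntaxin 13, serves recycling endosomes. Its levels were 2.99 and 3.34 in HCT116 and 1.71 and 2.37 in A549 (probe at chr1:28150636-28150695, hg19, plus strand), a change of 0.35 and 0.66. The miR-891b array was the higher one in both lines, and both HCT116 arrays were above both A549 arrays. STX1A, the neuronal plasma membrane syntaxin, had 3.64 and 3.69 in HCT116 and 4.33 and 4.89 in A549, a change of 0.05 and 0.56.

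STX2, known from epithelial secretion and cell division, differed in direction. Its levels were 2.11 and 2.45 in HCT116, higher with miR-891b by 0.34, and 2.59 and 2.22 in A549, a change of -0.37. Its probe spans 2577 bases of the genome on chromosome 12 (hg19), so it crosses a splice junction. STX5, the Golgi syntaxin, had the reverse pattern, with -0.37 in HCT116 and 0.51 in A549. STX4, the syntaxin of the plasma membrane in most cell types, was higher in both, by 0.33 and 0.20.

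Of the other Qa-SNAREs, STX7 of late endosomes had changes of 0.29 (HCT116) and -0.14 (A549), STX11 of immune cells had 0.32 and -0.023, and STX16 of the trans-Golgi network had -0.033 and 0.29. STX17 of autophagosomes had -0.22 and 0.20, and STX18 of the endoplasmic reticulum had -0.044 and -0.15. STX11 was the dimmest in processed signal, 7.15 to 9.29 over the arrays. In none of these 5 did the brightest probe reach 1.5-fold in either line, while the second STX16 probe had 0.60 in HCT116 and 0.22 in A549. The brightest STX7 probe lay in a stray area of the HCT116 miR-891b array (10.1% of nearby dim spots). The second STX7 probe had 0.025 in HCT116 and -0.098 in A549.

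Qb-SNAREs ran from -0.37 (VTI1A) to 0.58 (GOSR2) in A549 and from -0.15 (GOSR1) to 0.31 (GOSR2) in HCT116. GOSR2, also called membrin, works between the endoplasmic reticulum and the Golgi and was higher with miR-891b in both lines, with levels of 3.16 and 3.47 in HCT116 and 3.34 and 3.91 in A549. Its second probe, which the array design assigns to another RefSeq transcript, had 1.05 and 1.35 in HCT116 and 0.58 and 2.23 in A549, a change of 0.30 and 1.65. The probes gave nearly the same change in HCT116 and differed by 1.07 in A549, where only the second was past 2-fold. Stray signal surrounded the brighter GOSR2 probe on the HCT116 miR-891b array (13.0% of nearby dim spots).

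VTI1A, of the trans-Golgi network, had levels of 2.94 and 3.04 in HCT116 and 1.32 and 0.95 in A549, a change of 0.10 and -0.37. VTI1B, of late endosomes, had changes of -0.12 and -0.015, GOSR1 of the Golgi had -0.15 and 0.13, and BNIP1 of the endoplasmic reticulum had -0.011 and -0.18. None of these 4 reached 1.5-fold in either line on its brightest probe. Both GOSR1 probes lay in stray areas of the HCT116 miR-891b array (11.0% and 19.8% of nearby dim spots). The only BNIP1 probe lay in one on the A549 miR-891b array (19.8%). The second VTI1A probe had 0.02 in HCT116 and -0.88 in A549, and the mean over both was -0.63 in A549.

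Of the 5 Qc-SNAREs, 4 were lower in HCT116 and 3 in A549, beside 55.5% and 55.6% of all genes. USE1, of the endoplasmic reticulum, had 4.33 and 3.93 in HCT116 and 3.15 and 2.88 in A549, a change of -0.40 and -0.27, and its second probe had -0.50 and -0.19. STX10, of the trans-Golgi network, had 4.13 and 3.92 in HCT116 and 2.55 and 2.10 in A549 (-0.21 and -0.45). STX8 of late endosomes had 2.72 and 2.56 in HCT116 and 3.73 and 3.27 in A549 (-0.16 and -0.47). On their brightest probes all 3 were lower with miR-891b in both lines, each by less than 1.5-fold. The second STX10 probe had -0.22 in HCT116 and -0.69 in A549, past 1.5-fold, and the brightest one lay in a stray area of the HCT116 NC1 array (11.2% of nearby dim spots). STX6 of the trans-Golgi network was higher by 0.09 and 0.23, and BET1, of transport to the Golgi, had -0.09 and 0.0023.

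The 3 Qbc-SNAREs were the class with the lowest median in A549 (-0.97, from -1.13 to -0.83), and in HCT116 their median was -0.18. SNAP29, which acts with STX17 on autophagosomes, had levels of -1.23 and -1.34 in HCT116 and -0.91 and -2.04 in A549 (probe at chr22:21243819-21243878, hg19, plus strand). The A549 miR-891b array was the lowest of the 4, 2.19-fold below A549 NC1, whose processed signal was 39.8, while the HCT116 signals were 23.4 and 22.5. Under normexp with an offset of 50 the A549 change was -0.32, below 2-fold.

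SNAP23 is the form of SNAP25 found in most cells and takes part in exocytosis at the plasma membrane. Its levels were -1.80 and -2.40 in HCT116 and -1.40 and -2.36 in A549 (probe at chr15:42823617-42823676, hg19, plus strand), a change of -0.60 and -0.97. Both miR-891b arrays were below both NC1 arrays, 1.51-fold in HCT116 and 1.96-fold in A549. The processed signals were dim, 15.7 and 10.8 in HCT116 and 28.4 and 14.4 in A549, and the spot lay in a stray area of the HCT116 miR-891b array (15.1% of nearby dim spots). Under normexp the changes were -0.12 and -0.21.

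SNAP25, the neuronal form, had levels of -0.54 and -0.72 in HCT116 and 2.72 and 1.89 in A549 (probe at chr20:10287989-10288048, hg19, plus strand). The A549 arrays were both well above the HCT116 arrays. In A549 it was 1.77-fold lower with miR-891b (-0.83) and in HCT116 the change was -0.18.

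NSF, the ATPase that separates SNARE bundles, had 5.36 and 5.16 in HCT116 and 5.19 and 4.72 in A549, a change of -0.19 and -0.47. NAPA, the adaptor that brings NSF to the bundle, had 1.47 and 1.39 in HCT116 and 1.95 and 2.13 in A549, a change of -0.074 and 0.19. Neither reached 1.5-fold.

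**Figure D2:**
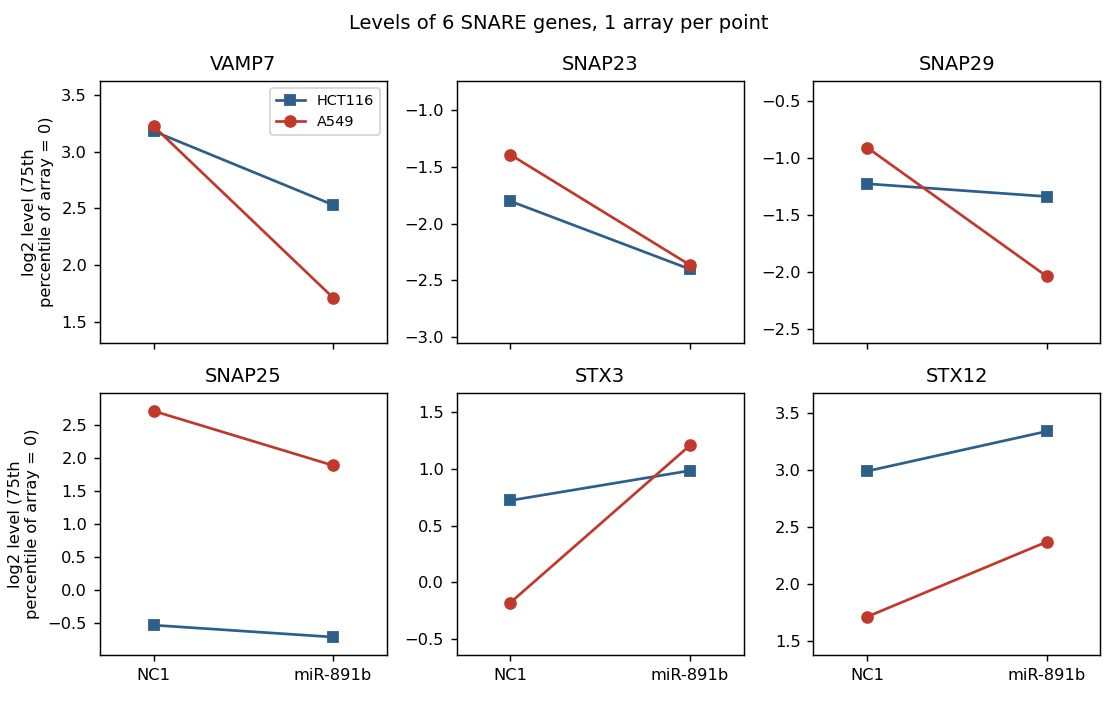
Levels of 6 SNARE genes (vertical axis, log2 processed signal relative to the 75th percentile of the array) on the NC1 and miR-891b arrays of HCT116 (squares) and A549 (circles), 1 array per point, with an axis range of its own in each panel. VAMP7 goes from 3.22 to 1.72 in A549 and from 3.18 to 2.53 in HCT116, STX3 crosses between the lines (-0.18 to 1.20 in A549), and SNAP25 stays higher in A549 on both arrays.

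Sorted by the membrane they serve, 6 of 8 members of endosomes and lysosomes were lower in A549 (median -0.27) and 6 of 8 in HCT116 (median -0.11). The exceptions in A549 were STX12 and STX17, and in HCT116 STX12 and STX7. Of 10 Golgi members 8 were higher in A549 (median 0.18) and 5 in HCT116. Of the 4 members of the endoplasmic reticulum 3 were lower in A549 and 4 in HCT116, and of the 11 members of the plasma membrane and recycling vesicles 7 were lower in A549 and 4 in HCT116. Over all genes 55.6% were lower in A549 and 55.5% in HCT116. These are counts over few genes, mostly of changes under 1.5-fold, and whether a compartment differs from the rest was not tested.

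The lines share no array, so their changes can be placed side by side. Of the 35 members 14 were lower in both lines, 9 were higher in both and 12 went in opposite directions, 5 lower in A549 only and 7 lower in HCT116 only. Over all 18062 genes measured in both lines, 6108 were lower in both, 3808 were higher in both and 8146 went in opposite directions. VAMP7 and SNAP23 were at least 1.5-fold lower in both (2 of 35), beside 1.38% of 18062 genes (250 genes). The size of the change was larger in A549 for 23 of 35 members (65.7%), beside 64.4% of all genes. Across the 35 genes Pearson's r between the lines was 0.54 and Spearman's rho 0.51; without VAMP7, SNAP23 and STX3 they were 0.31 and 0.40, and over all genes 0.13 and 0.13. Genes of one array share its scaling and are not replicates, and no p is given.

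The lines are the sole repeats of the transfection, and across them limma was fitted to all 4 arrays with line and transfection as additive terms, which left 1 residual degree of freedom. None of the 35 members had a Benjamini-Hochberg adjusted p under 0.05 (0 of 22710 genes, 0%), the smallest adjusted p from limma being 0.793. Without adjustment, 1214 genes (5.35%) were under 0.05, and 2 of them were members. These were VAMP7, with a mean change over the lines of -1.08 ± 0.31 (moderated SE), and SNAP23, with -0.78 ± 0.25 (moderated SE). The moderated SE of limma draws on the variance of all genes, so it is not the spread between the changes of the 2 lines. Both were lower in both lines, and neither passed the correction.

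The design also sets the lines against each other with NC1, which says how the SNARE repertoire of these cells differs apart from miR-891b. HCT116 RNA was on slide 1 and A549 RNA on slide 2, and the line and the slide cannot be told apart. In A549 5 of 35 members were at least 2-fold lower than in HCT116 (14.3%, beside 16.2% of 19218 genes) and 2 were at least 2-fold higher (5.71%, beside 11.1%).

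SNAP25 differed most, by 3.26, which is 9.55-fold after scaling to the 75th percentile. Its processed signals before that scaling were 37.8 in HCT116 and 491 in A549. STX8 was higher in A549 by 1.02, and BET1 (0.98) and STX4 (0.96) came just short of 2-fold. The 5 lower members were VTI1A (-1.61), STX10 (-1.58), VAMP8 (-1.34), STX12 (-1.28) and USE1 (-1.18). Second probes of STX10 (-1.23), USE1 (-1.37) and VTI1A (-1.87) had the same direction and were past 2-fold too.

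The miR-891b arrays are other samples of the same lines on the same slides, so line and slide cannot be told apart there either. On them 4 of the 5 were again at least 2-fold lower in A549. These were VTI1A (-2.09), STX10 (-1.81), VAMP8 (-1.63) and USE1 (-1.05), with STX12 at -0.97. The shares over all genes on the miR-891b arrays were not computed, so whether such persistence is usual was not tested. SNAP25 was again higher, by 2.61, and STX8 was at 0.71. STX7 (-1.08), STX1A (1.20) and BET1 (1.07) were past 2-fold on the miR-891b arrays only. The STX7 probe lay in a stray area of the HCT116 miR-891b array. Its second probe had levels of 0.57 in HCT116 and 0.34 in A549 on the miR-891b arrays. VAMP7, level between the lines with NC1 (0.04), was lower in A549 by 0.82 with miR-891b.

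**Figure D3:**
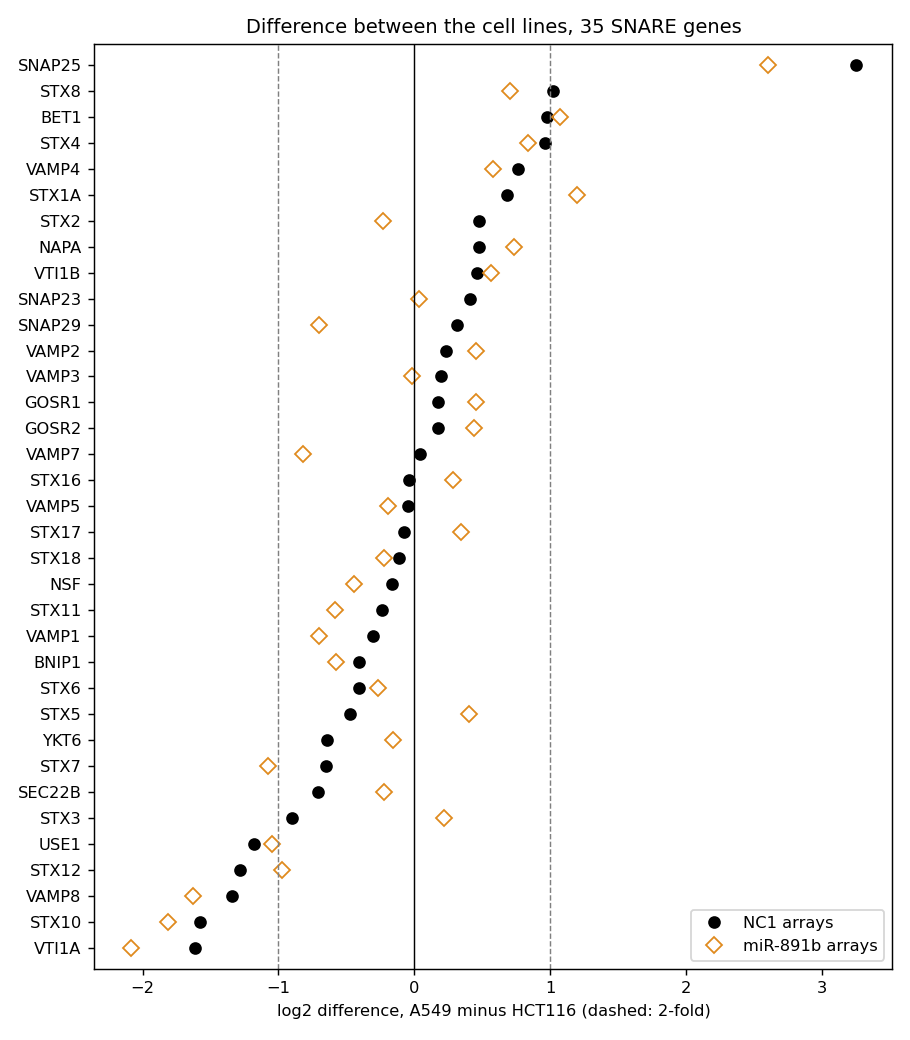
Difference between the lines (A549 minus HCT116, log2, horizontal axis) for the 35 SNARE genes, in order of the NC1 value, with a filled circle for the NC1 arrays and an open diamond for the miR-891b arrays, each from 1 array per line; dashed lines mark 2-fold. SNAP25 is at the top (3.26 and 2.61) and VTI1A at the bottom (-1.61 and -2.09). For 8 genes (VAMP3, VAMP7, STX2, STX3, STX5, STX16, STX17 and SNAP29) the NC1 and the miR-891b value lie on opposite sides of 0. Of these, VAMP7 (0.04), STX16 (-0.04) and STX17 (-0.07) were near 0 with NC1, and the share over all genes was not computed.

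The 15 members with several probes show how far a change depends on the probe. In HCT116 the probes of 11 had the same sign and those of 4 did not (NSF, SEC22B, STX16, VAMP2), with a median range between probes of 0.17 and a largest range of 0.67 (VAMP4). In A549 13 had the same sign and 2 did not (GOSR1, VAMP2), with a median range of 0.22 and a largest of 1.07 (GOSR2). VAMP2 had 3 probes, which in A549 gave -0.17, 0.52 and 0.67. VAMP7, STX3, SNAP23, SNAP25, SNAP29 and STX12 had 1 probe each, so no second probe bears on their values.

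**Figure D4:**
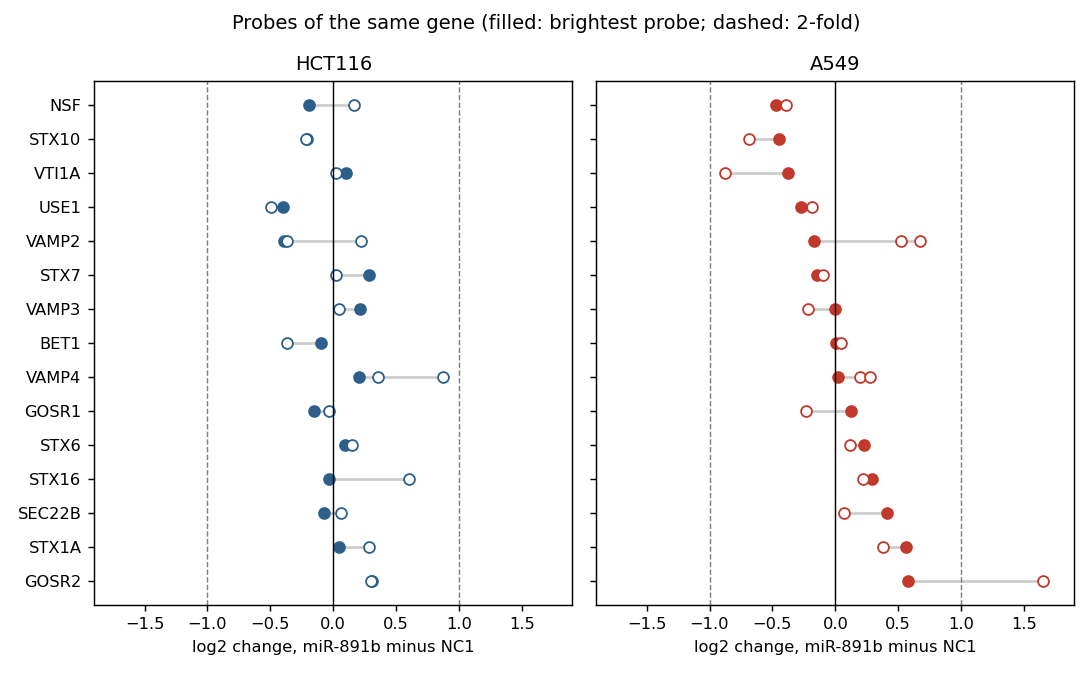
Log2 change (miR-891b minus NC1, horizontal axis) of each measured probe of the 15 SNARE genes with several probes, in HCT116 (left) and A549 (right), with the brightest probe filled and the others open; dashed lines mark 2-fold. The probes of GOSR2 lie furthest apart in A549 (0.58 and 1.65), and those of VAMP2 lie on both sides of 0 in both lines.

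A further list of 43 genes covers other SNAREs and the proteins that regulate or tether them. In A549 41 of them were measured, with 1 at least 2-fold lower (2.44%, beside 5.57% of all genes), 2 at least 2-fold higher (4.88%, beside 4.01%) and a median of 0.043. In HCT116 40 were measured, with 0 lower and 0 higher by 2-fold (beside 0.843% and 1.16%) and a median of 0.11. SEC22C, a relative of SEC22B, was the one lower in A549 (-1.01; levels 1.87 and 0.86), with -0.17 in HCT116 (2.42 and 2.25). BET1L, a Golgi relative of BET1, was higher in A549 by 1.06, to a level of 2.16 with miR-891b, and had -0.10 in HCT116 (levels 1.46 and 1.35). Neither call held in every setting. The A549 change of SEC22C was -0.76 under normexp with quantile normalization, and that of BET1L was 0.59 as the mean over probes.

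CPLX1, a complexin that clamps assembling SNARE bundles, had levels of 0.61 and 0.75 in HCT116 and -3.36 and -1.13 in A549, so the A549 change was 2.23 from a dim start, and 0.45 under normexp. CPLX2, another complexin, had the opposite sign in A549, with a change of -0.98 to a level of 4.22, and was not well above background in HCT116. Its probe lay in a stray area of the A549 miR-891b array (11.6% of nearby dim spots). STX19 was well above background on the A549 NC1 array but not on the miR-891b array, and was at least 1.72-fold lower there, the bound being set by the higher of its own signal and the lowest signal well above background on that array. STXBP6 was in the same position in HCT116 and allows no fold, and SYT11 was well above background on no array. Of the SM proteins, which hold syntaxins and guide their assembly, 6 of 8 were lower in A549 and 3 of 8 in HCT116. Of the tethers, the exocyst, HOPS and related complexes that hold a vesicle before fusion, 9 of 16 were higher in A549 and 12 of 16 in HCT116, in HCT116 all by less than 1.5-fold. Stray areas of the A549 miR-891b array held the tethers EXOC2, EXOC4, EXOC7 and NBAS (10.4% to 29.0% of nearby dim spots). The SM protein VPS45 lay in one on the HCT116 miR-891b array (13.7%). Over all genes 55.6% were lower in A549 and 55.5% in HCT116, and 9472 of 21337 and 8509 of 19104 were higher.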

How the data were processed

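Total RNA was labelled with Cy3 and hybridised to 1-colour Agilent arrays, 1 per group, grouped by title. Per the file headers, Feature Extraction 11.5.1.1 subtracted background, with probe positions on hg19, and the deposited files of each array give linear intensity values. The authors' deposited table holds log2 values, whose median distance from the setting used here was at most 0.00691 on each array; it served as an alternative.

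Log2 processed signals of gene probes were averaged over spots without an outlier mark, and each array's 75th percentile was subtracted. Measured in a line means well above background, by the scanner software's mark, on its NC1 and its miR-891b array. With 1 array per group, calls are by size. An additive model was fitted with limma 3.58.1 (R 4.3.3) on genes well above background on at least 2 of 4 arrays, and tested on simulated data. Named genes were all 35 members, those at least 1.5-fold apart or at the ends of the range in full, and related genes past 2-fold. The members, classes, lists and the stray-area rule were chosen with earlier results of these data known. RefSeq names and sequences are of GRCh38.p14; all 35 symbols were current. Exon and UTR annotation was not used here. Alternatives were quantile normalization with and without normexp (offset 50), median scaling, the authors' values, other filters on dim probes, no probes in stray areas, the mean over probes, and other fold thresholds. An item of the related list is not reported here.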

Additional observations from a re-analysis of the deposited data

Results flagged for a closer look

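4 syntaxins had changes of opposite sign in the lines, each beyond 2 times the median spread between spots. That spread does not cover cultures or labelling. Over all 18062 genes measured in both lines, 8146 went in opposite directions, and the share past this cut was not computed. STX2, of the plasma membrane, had -0.37 in A549 and 0.34 in HCT116, so the A549 change minus the HCT116 change was -0.71 on the log2 scale. STX5, of the Golgi, had 0.51 in A549 and -0.37 in HCT116, a difference of 0.88. STX7, of late endosomes, had -0.14 and 0.29, a difference of -0.43, and STX17, of autophagosomes, had 0.20 and -0.22, a difference of 0.42. The STX7 values are from a probe in a stray area of the HCT116 miR-891b array. Its A549 change was -0.080 with median scaling and -0.055 under normexp with quantile normalization. The second STX7 probe had -0.098 in A549 and 0.025 in HCT116. With 1 array per group, whether the lines differ was not tested for any of the 4.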

How the results depend on the processing

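Results were recomputed under normexp with quantile normalization, quantile normalization, median scaling, the authors' values, 2 other filters on dim probes, without probes in stray areas (32 members) and with the mean over probes, and counts also at 1.5-fold and 3-fold. Members at least 2-fold lower in A549 numbered 2, with 1 under normexp, 4 at 1.5-fold and 0 at 3-fold. Those higher numbered 1, with 0 under normexp, 2 without stray areas, 2 with the mean over probes (GOSR2 besides STX3 in both), 2 at 1.5-fold and 0 at 3-fold. In HCT116 the lower count went from 0 to 2 at 1.5-fold. Between the NC1 arrays the 5 lower members became 9 at 1.5-fold and 1 at 3-fold. The 2 higher became 4 with median scaling, 6 at 1.5-fold and 1 at 3-fold. At 1.5-fold these were 25.7% lower and 17.1% higher, beside 28.5% and 20.1% of all genes. For this comparison the shares over all genes at 3-fold and with median scaling were not computed. The HCT116 median of -0.073 was -0.011 under normexp and 0.015 under quantile normalization. The offset of 50 in normexp is added to every signal. The additive model called 0 members in each setting run. Of 76 values of members and named related genes in a line, 64 kept their sign in every alternative run. The 12 that did not are at most 0.32 in size: VAMP2, VAMP3, STX11, BET1, GOSR1 and VTI1B in A549 (VAMP2 was 0.34 as the mean over probes and 0.52 without stray areas) and VAMP8, STX11, STX16, STX18, SEC22B and BNIP1 in HCT116. Under normexp all measured genes at least 2-fold lower and higher numbered 416 and 346 in A549 and 13 and 27 in HCT116, and with no filter on dim probes 3081 and 2934, and 1434 and 2788, the latter over 43315 and 43310 genes. SNAP23, GOSR1 and BNIP1 have no value without stray areas, since every probe of each lies in one. The labels give no replicate numbers; the additive model pairs miR-891b with NC1 within each line, and no replicate could be left out with 1 array per group. Dim probes such as SNAP23, SNAP29 and VAMP1 limit what the arrays can resolve.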
